A study of Mus musculus with 6 samples.

Results

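Cytochrome P450 genes were examined in cultured mouse tracheal epithelium by single-cell RNA-Seq. The group was defined by name as every gene whose symbol is Cyp followed by digits, 1 letter, digits and an optional final letter, which gave 56 of the 20483 genes measured. *Cyp51*, *Tbxas1* and *Ptgis* are P450 genes whose symbols fall outside that rule and were kept as a comparison list. Primary airway cells came from the tracheas of C57BL/6 mice, 12 weeks old, and were expanded and then differentiated at air-liquid interface (ALI), where basal progenitors give rise to secretory and multiciliated cells. Cultures of 3 *WT/WT* mice, numbered 1 to 3, were compared with cultures of 3 *MIS/MIS* mice (MT1301, MT1306, MT1383), which carry on both alleles a missense change, cysteine to phenylalanine, in *Dnaaf5*, a factor that assembles dynein motors of cilia. The authors' annotation placed 23871 cells in 16 clusters, and counts of unique molecular identifiers (UMIs, 1 per captured transcript) were summed per mouse and cluster and scaled for depth to CPM, a gene's share of all UMIs of the sum. Since a UMI marks 1 transcript at its 3′ end, a level in CPM does not grow with the length of the transcript.

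P450 enzymes hold a heme group and use oxygen and electrons from a reductase to oxidize small molecules. In liver and airway, members of families 1 to 3 act mostly on foreign compounds, whereas members of family 4 act mostly on fatty acids and eicosanoids and other families act on retinoic acid, sterols and steroid hormones. The airway epithelium, above all its secretory (club) cells, is known for high levels of some family 2 and family 4 enzymes, which turn inhaled compounds such as naphthalene into reactive products.

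The family is recognized by a conserved stretch around the cysteine that holds the heme iron. The stretch was searched in the encoded proteins as phenylalanine, 2 residues, glycine, 3 residues, cysteine, 1 residue and glycine. Its 30 bases of coding sequence are shown for members with high levels and for 2 pairs of near-identical genes, to show where the pairs cannot be told apart, 5′ to 3′ from transcripts of GENCODE M21 on GRCm38, with the cysteine codon in capitals.
Cyp2f2: ttttcggctggacgtcgactgTGTctggga
Cyp2a5: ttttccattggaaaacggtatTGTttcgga
Cyp2a4: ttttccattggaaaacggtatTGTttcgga
Cyp4b1: ttttctgcagggcccaggaatTGCattggg
Cyp1b1: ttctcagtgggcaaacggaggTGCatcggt
Cyp26b1: tttggcggtggcgtgcggaccTGCctgggc
Cyp4a12a: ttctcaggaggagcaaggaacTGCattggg
Cyp4a12b: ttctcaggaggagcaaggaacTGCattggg
The stretch was found once in 53 of 56 members, with *Cyp20a1*, *Cyp2b10* and *Cyp2s1* as the exceptions in the transcript model used. It was identical in *Cyp2a4* and *Cyp2a5* and in *Cyp4a12a* and *Cyp4a12b*. Coding sequences were 98.4% identical in the first pair and 98.5% in the second, and 6 of 64 pairs of members of the same subfamily were over 90% identical. In the last 500 bases of the transcript, where these libraries are read, 37.0% of the 50-base windows of *Cyp2a4* also occurred in *Cyp2a5* and 12.4% of those of *Cyp2a5* in *Cyp2a4*. For *Cyp4a12a* and *Cyp4a12b* the share was 37.0% in both directions, so the split of UMIs between the genes of either pair is uncertain.

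Over all mice the named cell types held most of their markers. *Foxi1*, *Ascl3* and *Cftr* were highest in the ionocyte cluster, *Chga* and *Calca* in the neuroendocrine cluster, and *Scgb1a1*, *Scgb3a2* and *Bpifa1* in Secretory1. The secretory marker *Lypd2* was instead highest in Multiciliated1 (978 CPM). It was also higher in Basal5 (545 CPM) and Basal2 (503 CPM) than in Secretory1 (330 CPM). Basal8 cells had little of 2 basal markers, with 43.0 CPM of *Krt5* and 5.27 CPM of *Trp63*, against 942 and 104 CPM in Basal4. Of the other basal markers, *Krt14* and *Dlk2* were also lower in Basal8 than in Basal4, whereas *Krt15* was higher. Basal8 cells thus lacked some basal markers but not all. Multiciliated1 cells held secretory transcripts beside ciliary ones, with 1637 CPM of *Scgb3a2*, 706 CPM of *Tppp3* and 72.5 CPM of *Foxj1*. Multiciliated2 cells also did, with 941 CPM of *Scgb3a2* and 2503 CPM of *Bpifa1*, which was at 945 CPM in Multiciliated1. *Scgb3a2* was at 758 CPM in the ionocyte and 606 CPM in the neuroendocrine cluster, and at 90.4 and 73.7 CPM in Multiciliated3 and Multiciliated4. Some basal clusters held as much or more, with *Scgb3a2* at 2999 CPM in Basal2 and 1533 CPM in Basal6. *Bpifa1* was at 4089 CPM in Basal6 and 1523 CPM in Basal2. Other basal clusters held less *Scgb3a2*, down to 99.9 CPM in Basal5. Secretory transcripts were thus not particular to Multiciliated1 and Multiciliated2. The immune markers *Ptprc* and *Cd3e*, the liver markers *Alb*, *Apoa1* and *Ttr* and the endothelial marker *Pecam1* were at most 0.729 CPM in any mouse, while *Cd68*, which epithelial cells can express, lay between 17.3 and 24.1 CPM. The 3 fibroblast markers summed to between 4.22 and 44.9 CPM in *WT/WT* and between 8.64 and 21.2 CPM in *MIS/MIS* mice. Over all cells of a mouse, the 5 multiciliated markers summed to between 444 and 593 CPM in *WT/WT* and between 613 and 1254 CPM in *MIS/MIS* mice, and the 5 basal markers to between 3555 and 4181 CPM and between 2262 and 3428 CPM, so that neither overlapped between genotypes. The 5 secretory markers overlapped, at 7184 to 9290 CPM and 7252 to 13063 CPM. Within single classes between 5.5% and 10% of all genes did not overlap, and no such share was determined for marker sums over all cells. The part of these markers in the results was not tested. Libraries held between 100961835 and 153326568 UMIs and 2673 to 6710 cells, and 67 cell barcodes occurred in more than 1 mouse. Clusters were unevenly spread, since *WT/WT* mouse 1 gave 1048 of the 1365 Basal4 cells, MT1383 gave 729 of the 1180 Basal5 cells and the ionocyte cluster held 28 cells. *Dnaaf5* itself ranged in multiciliated cells from 38.2 to 49.4 CPM (*WT/WT*) and from 49.3 to 54.9 CPM (*MIS/MIS*), and a 3′ tag does not read the changed base, so this level does not check the genotype. Where nothing states otherwise, a value per mouse is given only for clusters with at least 20 cells of that mouse.

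All 56 members had at least 3 UMIs, and together they took 5820246 UMIs, or 0.777% of all UMIs. Most of this was 1 gene. *Cyp2f2*, the enzyme that activates naphthalene in mouse club cells, held 85.9% of the UMIs of the family and ranked 14 among all genes. The level of the whole family was highest in Multiciliated1 cells, at 12542 CPM with 11499 to 13360 CPM in single mice, and in Secretory1 cells, at 11090 CPM with 10239 to 12091 CPM. It was lowest in Multiciliated4 cells, at 644 CPM with 332 to 944 CPM. At least 10 CPM in at least 1 cluster was reached by 22 members (39.3%), against 57.3% of all genes. Of the other 34 members, 9 peaked between 1 and 10 CPM and 25 stayed under 1 CPM in every cluster. Because clusters were made from the expression of these same cells, levels by cluster are described without a test.

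**Figure D1:**
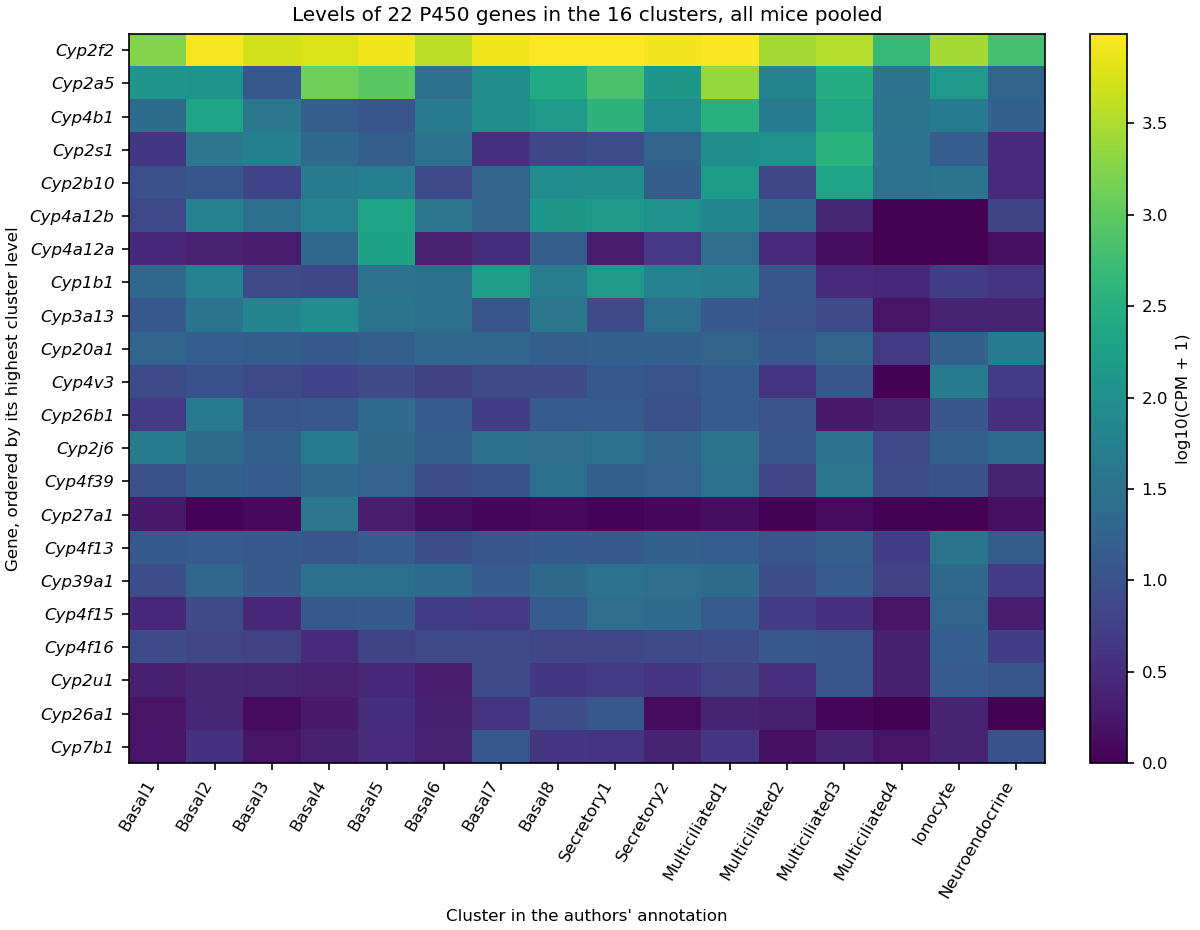
Levels of the 22 P450 genes that reached 10 CPM, as log10(CPM + 1) with all mice pooled, with genes as rows in the order of their highest level and the 16 clusters as columns. *Cyp2f2* was high in most clusters and lowest in Multiciliated4 cells, whereas *Cyp27a1* stood out in 1 cluster, Basal4.

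Among the 22 genes, the highest level fell in Secretory1 and in the ionocyte cluster for 4 genes each, in Basal4 and in Multiciliated3 for 3 each, in Basal5 and in Basal7 for 2 each, and in Basal2, Basal8, Multiciliated1 and the neuroendocrine cluster for 1 each. None peaked in Basal1, Basal3, Basal6, Secretory2, Multiciliated2 or Multiciliated4. Of all genes that reached 10 CPM, 1.62% peaked in Secretory1, 9.59% in the ionocyte cluster, 4.06% in Basal4, 13.5% in Multiciliated3, 0.946% in Basal5, 3.99% in Basal7, 0.596% in Basal2, 1.21% in Basal8, 0.809% in Multiciliated1 and 24.1% in the neuroendocrine cluster. In the clusters where no member peaked, the shares were 4.87% (Basal1), 4.15% (Basal3), 5.52% (Basal6), 1.46% (Secretory2), 11.04% (Multiciliated2) and 12.5% (Multiciliated4).

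Members were listed by main substrate from their gene symbols, and the substrate of single members was not checked. The members listed under foreign compounds numbered 23, of which 5 reached 10 CPM. *Cyp2f2* had its highest levels in Basal8 (9754 CPM), Secretory1 (9436 CPM) and Multiciliated1 (9318 CPM). In Secretory1 cells the *WT/WT* mice had 9451, 10238 and 9450 CPM and the *MIS/MIS* mice 9729, 9228 and 8269 CPM. The 3 leading clusters overlapped among mice, and only 2 of the 5 mice with both clusters had more *Cyp2f2* in Basal8 than in Secretory1. At the lower end, Basal1 (1016 to 2420 CPM) lay above Multiciliated4 (206 to 635 CPM) in every mouse. The clusters with values from several mice formed 13 neighbouring pairs when put in order, of which 3 were separated in this way.

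*Cyp2a5*, which hydroxylates coumarin and nicotine, was highest in Multiciliated1 cells at 2281 CPM. There the *WT/WT* mice had 2473, 1492 and 1486 CPM and the *MIS/MIS* mice 1856, 1473 and 2974 CPM. The lowest of these mice barely exceeded the highest mouse of the next cluster, Basal4, at 1465 CPM (*WT/WT* mouse 1). In Basal3 cells *Cyp2a5* was at 11.4 CPM. Its near-identical neighbour *Cyp2a4* had 143 UMIs in all cells together, against 354981 of *Cyp2a5*. Over all cells each mouse had between 59.3 and 81.7 CPM of the Y-linked gene *Ddx3y* and at most 0.475 CPM of *Xist*. The cultures thus looked male, and levels in cultures of females are not known. Because *Cyp2a5* and *Cyp2a4* differed so widely in level, their promoters are shown. The 300 bases from 250 before to 50 after the start, from RefSeq on GRCm38.p6, plus strand, are printed with differing or unaligned bases in capitals.
Cyp2a5: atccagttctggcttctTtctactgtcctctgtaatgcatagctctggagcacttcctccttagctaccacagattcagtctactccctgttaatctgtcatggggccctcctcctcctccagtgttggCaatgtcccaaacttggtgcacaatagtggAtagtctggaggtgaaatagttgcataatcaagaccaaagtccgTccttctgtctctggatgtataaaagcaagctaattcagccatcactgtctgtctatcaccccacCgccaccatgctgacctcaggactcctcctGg
Cyp2a4: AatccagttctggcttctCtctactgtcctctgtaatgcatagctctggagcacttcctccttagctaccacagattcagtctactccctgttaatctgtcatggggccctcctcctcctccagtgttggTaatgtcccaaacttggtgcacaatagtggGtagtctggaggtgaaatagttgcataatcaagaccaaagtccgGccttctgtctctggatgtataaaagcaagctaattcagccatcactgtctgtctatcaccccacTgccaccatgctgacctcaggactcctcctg
The windows lie at chr7:26835089-26835388 and chr7:26306942-26307241. They aligned over 299 bases with 5 differing bases, and 1 base of each lay outside the alignment. Both hold TATAAA on the coding strand, as do 21.3% of the 47 promoters found for 42 members and 8.3% of all 32851 promoters. GCGTG, the core of the element bound by the aryl hydrocarbon receptor, was searched on both strands and found in neither, and it was present in 25.5% of promoters of members and 32.4% of all promoters.

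Both genes belong to a run of 9 members on chromosome 7 that extends over 1.331 Mb from *Cyp2s1* (chr7:25802475-25816913) to *Cyp2f2* (chr7:27119909-27133660). Within this run *Cyp2f2*, *Cyp2a5*, *Cyp2b10* and *Cyp2s1* had between 44428 and 5002186 UMIs. The other members, *Cyp2b9*, *Cyp2a4*, *Cyp2b19*, *Cyp2g1* and *Cyp2a12*, had between 34 and 709 UMIs and never reached 10 CPM. The order along the chromosome did not separate high from low genes, since *Cyp2a5* lies between *Cyp2g1* (63 UMIs) and *Cyp2a12* (709 UMIs).

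*Cyp2b10*, in liver the classical target of the constitutive androstane receptor, was highest in Multiciliated3 cells at 214 CPM. The *WT/WT* mice had 225, 198 and 189 CPM there and the *MIS/MIS* mice 246, 231 and 200.04 CPM. All of these exceeded the 138 to 172 CPM of Multiciliated1 cells, and those in turn exceeded the 70.4 to 126 CPM of Secretory1 cells, so the order of these 3 clusters held in every mouse. In Multiciliated2 cells, which hold the genes of early multiciliated cells, it was at 6.21 CPM. *Cyp1b1*, which oxidizes estrogens and polycyclic hydrocarbons, was highest in Basal7 (164 CPM, 113 to 209 CPM among 5 mice) and Secretory1 (143 CPM, 124 to 161 CPM), which overlapped. In Multiciliated3 cells it was at 2.07 CPM. *Cyp3a13*, a member of the family of drug-metabolizing 3A enzymes, was highest in Basal4 (89.5 CPM) and Basal3 (61.8 CPM), and it was at 7.56 CPM in Secretory1. *Cyp1a1*, the usual marker of aryl hydrocarbon receptor activity, had 3 UMIs in all cells, and *Cyp2e1*, an abundant enzyme of liver, also had 3.

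**Figure D2:**
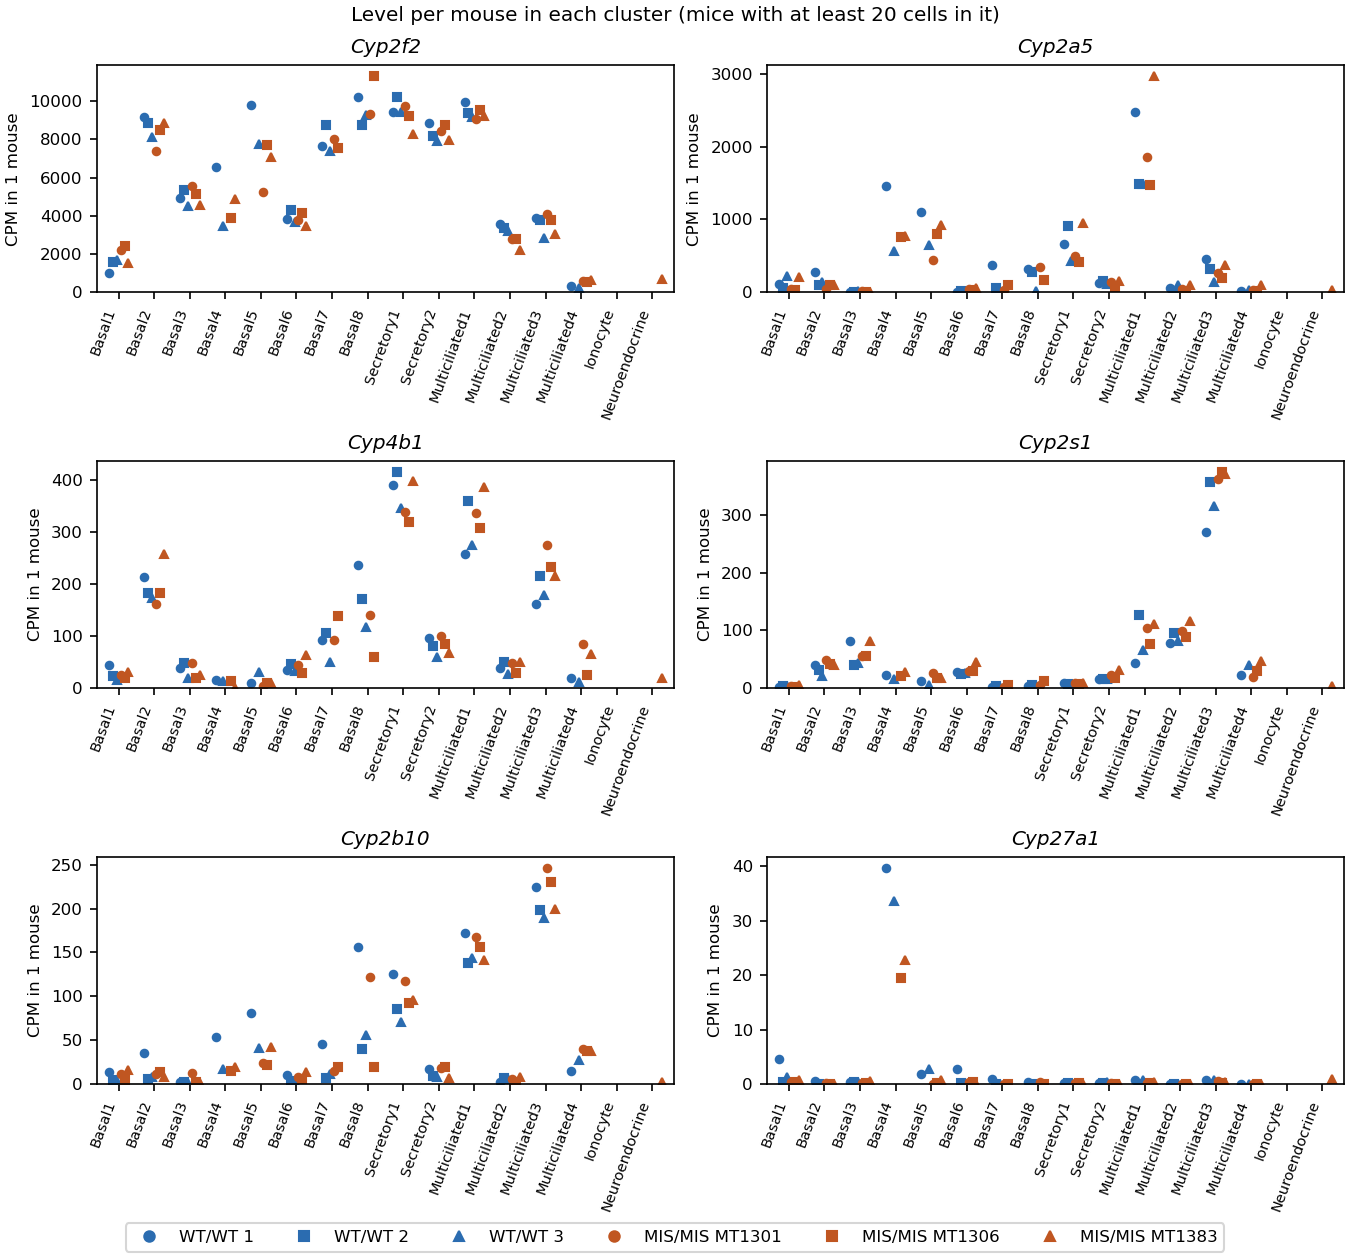
Level of 6 P450 genes in CPM for each mouse with at least 20 cells in a cluster, with blue points for *WT/WT* and orange points for *MIS/MIS* mice. *Cyp2a5* was highest in Multiciliated1 (1473 to 2974 CPM), *Cyp2s1* and *Cyp2b10* in Multiciliated3 (270 to 374 and 189 to 246 CPM), and *Cyp27a1* in Basal4 (19.5 to 39.7 CPM).

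Of the 19 members listed under fatty acids and eicosanoids, 10 reached 10 CPM. *Cyp4b1*, an enzyme of lung that activates furans as well as hydroxylating fatty acids, was highest in Secretory1 at 375 CPM. The *WT/WT* mice had 390, 416 and 347 CPM there and the *MIS/MIS* mice 339, 320 and 398 CPM. Each of the 6 mice had less in Multiciliated1 cells (342 CPM over all mice), although the ranges of the clusters overlapped. Basal2 cells, at 215 CPM with 162 to 257 CPM among mice, were the highest of the basal clusters, and Basal5 cells had 10.2 CPM.

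*Cyp4a12a* and *Cyp4a12b*, which hydroxylate arachidonic acid, lie 78.8 kb apart on chromosome 4. They reached similar levels in Basal5, 209 and 213 CPM, but differed elsewhere. *Cyp4a12b* was at 139 CPM in Secretory1, where *Cyp4a12a* was at 1.03 CPM. *Cyp4a12a* varied widely among mice, with 343 and 43.5 CPM in Basal5 cells of *WT/WT* mice 1 and 3, and 59.9, 105 and 167 CPM in those of the *MIS/MIS* mice. *WT/WT* mouse 2 had no Basal5 cells.

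*Cyp4v3* (44.7 CPM, 31 UMIs), *Cyp4f13* (33.2 CPM, 23 UMIs), *Cyp4f16* (14.4 CPM, 10 UMIs) and *Cyp2u1* (12.97 CPM, 9 UMIs) peaked in the ionocyte cluster, whose 28 cells came from 3 mice, none with 20. With each mouse weighted alike and this cluster left out, they peaked elsewhere, *Cyp4v3* in Multiciliated1 at 12.4 CPM and *Cyp4f13* in Secretory2 at 17.3 CPM. *Cyp4f39*, whose human counterpart makes the very long hydroxylated fatty acids of skin lipids, was highest in Multiciliated3 (37.8 CPM, 31.0 to 43.5 CPM among mice). *Cyp4f15* was highest in Secretory1 (25.7 CPM, 21.1 to 31.5 CPM). *Cyp2j6*, of the subfamily that makes epoxides of arachidonic acid, was at 43.3 CPM in Basal4 and 41.1 CPM in Basal1. It had at least 6.76 CPM in every cluster. The 7 *Cyp4f* members on chromosome 17 did not share a leading cluster.

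Both retinoid members reached 10 CPM. *Cyp26b1* and *Cyp26a1* break down retinoic acid, a signal that cultured airway cells need to become multiciliated. *Cyp26b1* was highest in Basal2 (44.3 CPM) and at 0.942 CPM in Multiciliated3. It varied widely among mice of the same genotype. In Basal2 cells the *WT/WT* mice had 15.6, 8.60 and 49.3 CPM and the *MIS/MIS* mice 9.70, 35.4 and 61.8 CPM. *WT/WT* mouse 3, MT1306 and MT1383 were the 3 highest mice in 8 of the 9 clusters with at least 20 cells in each mouse, and these clusters share the same cultures. *Cyp26a1* was highest in Secretory1 (11.4 CPM), with 6.48 CPM in *WT/WT* mouse 2 and 18.5 CPM in MT1306 as the extremes. This order held for pooled counts. Basal8, at 8.20 CPM, overlapped with Secretory1 among mice, and only 2 of the 5 mice with both clusters had more *Cyp26a1* in Secretory1.

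**Figure D3:**
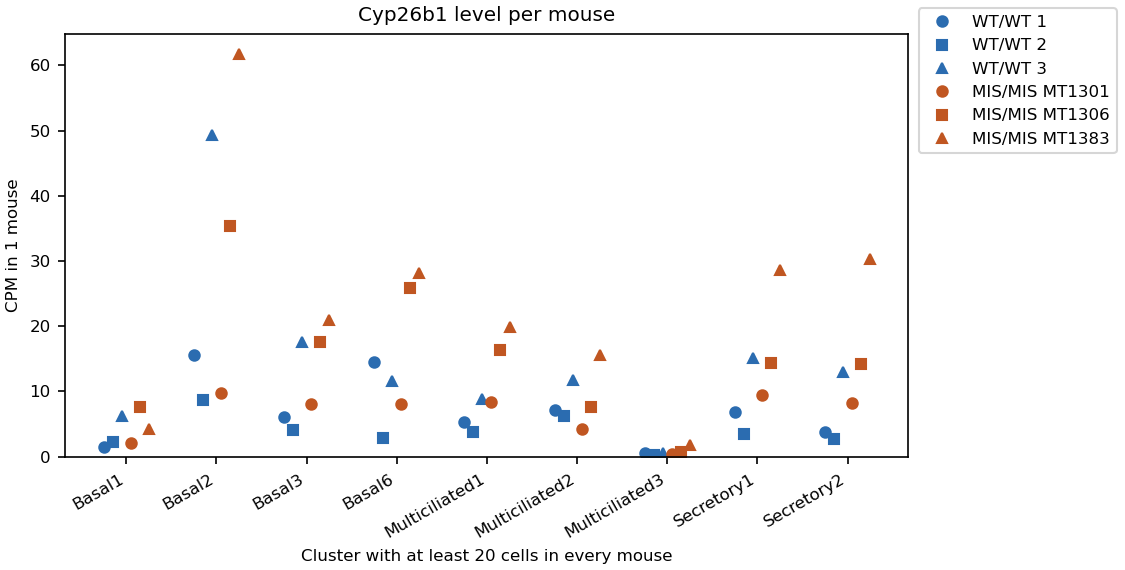
Level of *Cyp26b1* in CPM for each mouse in the 9 clusters with at least 20 cells of every mouse. Mice of both genotypes are among the highest, as in Basal2 with 61.8 CPM in MT1383 and 49.3 CPM in *WT/WT* mouse 3, and among the lowest.

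Of the 4 members listed under sterols and bile acids, 3 reached 10 CPM. *Cyp27a1*, a mitochondrial enzyme of bile acid synthesis, was nearly restricted to 1 cluster. It was at 37.0 CPM in Basal4 cells and at most 1.10 CPM in any other cluster. In Basal4 cells *WT/WT* mice 1 and 3 had 39.7 and 33.7 CPM and MT1306 and MT1383 had 19.5 and 22.7 CPM. *WT/WT* mouse 2 and MT1301 had fewer than 20 such cells. Basal4 cells also held 8499 CPM of *Krt13*, a keratin of squamous and hillock cells. Of the other hillock or squamous markers, *Krt4* and *Krt6a* also peaked in Basal4. *Ivl* was instead highest in Basal3 (52.9 CPM) and was also higher in Basal1 (39.1 CPM) than in Basal4. *Sprr1b* had 3 UMIs in all cells and peaked in Basal1. *Cyp39a1*, an oxysterol hydroxylase, was spread widely with 30.02 CPM in Secretory1 and 4.01 CPM in the neuroendocrine cluster as extremes. *Cyp7b1*, also an oxysterol hydroxylase, was highest in Basal7 (11.3 CPM), followed by the neuroendocrine cluster (9.03 CPM), where only 1 mouse had at least 20 cells. The lowest of 5 mice in Basal7, at 8.14 CPM, exceeded the highest mouse of Basal8, at 3.94 CPM, and that of Basal4, at 6.50 CPM.

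The 3 steroid hormone members and the 2 vitamin D members present in the table stayed under 10 CPM, and *Cyp21a1* was the highest of them at 1.65 CPM in Basal7. *Cyp27b1*, which activates vitamin D, had 6 UMIs.

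Among members with unsettled substrates, *Cyp2s1*, a P450 of surface epithelia, was highest in Multiciliated3 at 354 CPM. The *WT/WT* mice had 270, 356 and 316 CPM there and the *MIS/MIS* mice 362, 374 and 370.4 CPM. All of them exceeded the highest mouse of the next cluster, Multiciliated2, at 116 CPM. *Cyp20a1*, an orphan enzyme, was nearly even. It lay between 10.9 and 19.6 CPM in 14 clusters other than Multiciliated4 (3.69 CPM) and the neuroendocrine cluster (45.1 CPM, 90 UMIs), and none of its 13 neighbouring pairs of clusters was separated.

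Genes most like the 3 leading members were sought by Pearson's r of log2(CPM + 1) over the 16 clusters, among 11736 other genes that reached 10 CPM. These are descriptions of 16 points that share libraries and differ in depth and cell number. The 5 nearest to *Cyp2f2* were *Ces1e* (r = 0.97), *Ephx1* (0.94), *Ces1d* (0.93), *Usp25* (0.92) and *Mob3b* (0.92). *Ces1d* and *Ces1e* encode carboxylesterases and *Ephx1* an epoxide hydrolase. The nearest to *Cyp2a5* were *Ddx60* (0.86), *Mindy1* (0.82), *Pdzk1ip1* (0.80), *Wdr1* (0.80) and *Cyp2b10* (0.80), and those to *Cyp4b1* were *Tacr1* (0.87), *Aox1* (0.84), *Lbp* (0.83), *Lpar1* (0.83) and *Serping1* (0.82).

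To determine whether the *Dnaaf5* genotype was accompanied by a change in these genes, sums of UMIs per mouse were compared within multiciliated, secretory and basal cells with limma's voom test over all genes, with Benjamini-Hochberg adjustment. No member differed between *MIS/MIS* and *WT/WT* at an adjusted p under 0.05. The number of members that could be tested was 26 in multiciliated, 26 in secretory and 29 in basal cells, and the rest had too few UMIs. A sum over a class cannot tell fewer cells of one cluster from less RNA per cell. Among all genes, the same threshold called 1 of 14206 (0.00704%) in the multiciliated comparison, 1 of 13610 (0.00735%) in the secretory one and 0 of 14615 (0%) in the basal one. At an unadjusted p under 0.05 there were 2, 3 and 1 members, against 4.32%, 1.9% and 2.29% of all genes. The limma-trend method also called 0 members in each class. The estimate was higher in *MIS/MIS* for 18 of 26 members in the multiciliated comparison, for 13 of 26 in the secretory one and for 17 of 29 in the basal one, against 51.5%, 48.4% and 48.0% of all genes tested. Their median log2 fold changes were 0.09, 0.01 and 0.12, against 0.01, -0.00 and -0.01 over all genes tested.

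**Figure D4:**
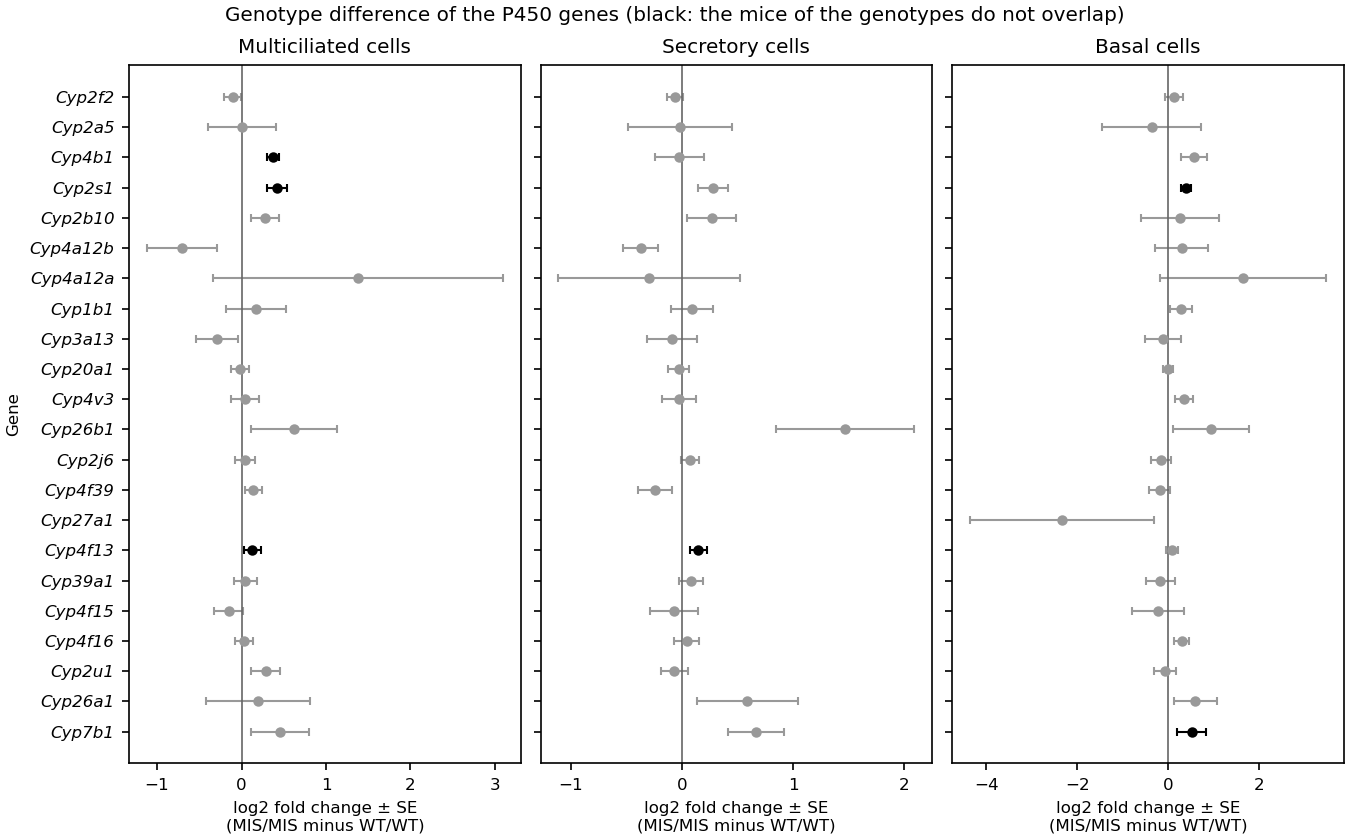
Log2 fold change of *MIS/MIS* against *WT/WT* with its SE for the 22 P450 genes in each cell class, for genes with enough UMIs to be tested. The horizontal scales differ between panels. Black points mark genes whose mice did not overlap between genotypes, such as *Cyp4b1* (0.37) and *Cyp2s1* (0.42) in multiciliated cells, and the widest bars belong to *Cyp4a12a* and *Cyp27a1*.

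*Cyp2f2* differed little between genotypes. In multiciliated cells the *WT/WT* mice had 5512, 4860 and 4571 CPM and the *MIS/MIS* mice 4740, 4582 and 4797 CPM, which overlapped, with a log2 fold change of -0.10 ± 0.10 (SE, adjusted p = 0.899). The secretory estimate was -0.06 ± 0.07 (SE, adjusted p = 1.00) and the basal one 0.12 ± 0.19 (SE, adjusted p = 1.00). *Cyp2a5* spread more among mice, from 392 to 1133 CPM in multiciliated cells, with both extremes in *MIS/MIS* mice, and its estimate there was 0.00 ± 0.41 (SE, adjusted p = 0.999).

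*Cyp4b1* had the lowest p of the members in multiciliated cells. The *WT/WT* mice had 159, 178 and 174 CPM and the *MIS/MIS* mice 223, 216 and 234 CPM, so the groups did not overlap. The log2 fold change was 0.37 ± 0.07 (SE), with an adjusted p of 0.896 over all genes. In secretory cells the groups overlapped, with 265, 278 and 256 CPM against 246, 200 and 365 CPM and a log2 fold change of -0.02 ± 0.22. In basal cells the values were 40.2, 60.8 and 51.8 CPM against 68.0, 57.0 and 118 CPM, with a log2 fold change of 0.57 ± 0.28 (SE, adjusted p = 1.00). MT1383, the highest of these mice, had 1295 of its 2836 basal cells in Basal2, the basal cluster richest in *Cyp4b1*. With the same number of cells of each of 4 basal clusters taken from every mouse, the basal estimate was -0.06, whereas in multiciliated cells it was 0.28. The basal clusters taken were Basal1, Basal2, Basal3 and Basal6, with cells picked at random, and the other basal clusters were left out. The part of cluster shares in the *Cyp4b1* estimates was not tested. The difference between the basal and secretory estimates was 0.60 ± 0.21 (SE, adjusted p = 1.00).

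*Cyp2s1* was higher without overlap in 2 classes. In multiciliated cells the *WT/WT* mice had 155, 194 and 200.2 CPM and the *MIS/MIS* mice 231, 279 and 232 CPM, with a log2 fold change of 0.42 ± 0.12 (SE, adjusted p = 0.896). In basal cells they had 21.7, 19.7 and 18.6 CPM against 27.2, 27.5 and 27.5 CPM, with a log2 fold change of 0.40 ± 0.11 (SE, adjusted p = 1.00). In secretory cells the groups overlapped, at 11.6, 11.1 and 8.34 CPM against 14.2, 12.1 and 11.3 CPM, with a log2 fold change of 0.28 ± 0.14. Multiciliated3, the cluster richest in *Cyp2s1*, made up 173 of 332, 250 of 582 and 265 of 450 multiciliated cells of *WT/WT* mice and 381 of 653, 457 of 651 and 1186 of 2155 of those of *MIS/MIS* mice. With equal numbers of cells per cluster the estimate was 0.27 in multiciliated cells and 0.25 in basal cells. The part of cluster shares in the *Cyp2s1* estimates was not tested.

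*Cyp4f13*, of the subfamily that hydroxylates eicosanoids, lay in multiciliated cells at 12.9, 13.1 and 12.1 CPM (*WT/WT*) and at 13.4, 13.7 and 14.9 CPM (*MIS/MIS*). In secretory cells it lay at 13.6, 12.8 and 13.2 CPM and at 14.0, 15.3 and 14.5 CPM. The groups did not overlap in either class, and the log2 fold changes were small, 0.13 ± 0.10 (SE, adjusted p = 0.896) and 0.15 ± 0.07 (SE, adjusted p = 1.00).

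In all, the genotypes did not overlap for 3 members in multiciliated cells, each higher in *MIS/MIS*, where 10% of all genes did not overlap, 6.84% higher and 3.19% lower. In secretory cells there were 2, *Cyp4f13* and, lower in *MIS/MIS*, *Cyp2c65*, against 5.5% of all genes (2.92% higher and 2.57% lower). In basal cells there were 2, *Cyp2s1* and *Cyp7b1*, both higher, against 7.96% of all genes (6.08% higher and 1.89% lower). *Cyp2c65* (1.15 ± 0.15 CPM in *WT/WT* and 0.635 ± 0.27 CPM in *MIS/MIS* mice, SD, n = 3 each) and *Cyp7b1* in basal cells (1.59 ± 0.58 and 2.29 ± 0.03 CPM, SD, n = 3 each) lay under 5 CPM and were named after their values were seen.

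**Figure D5:**
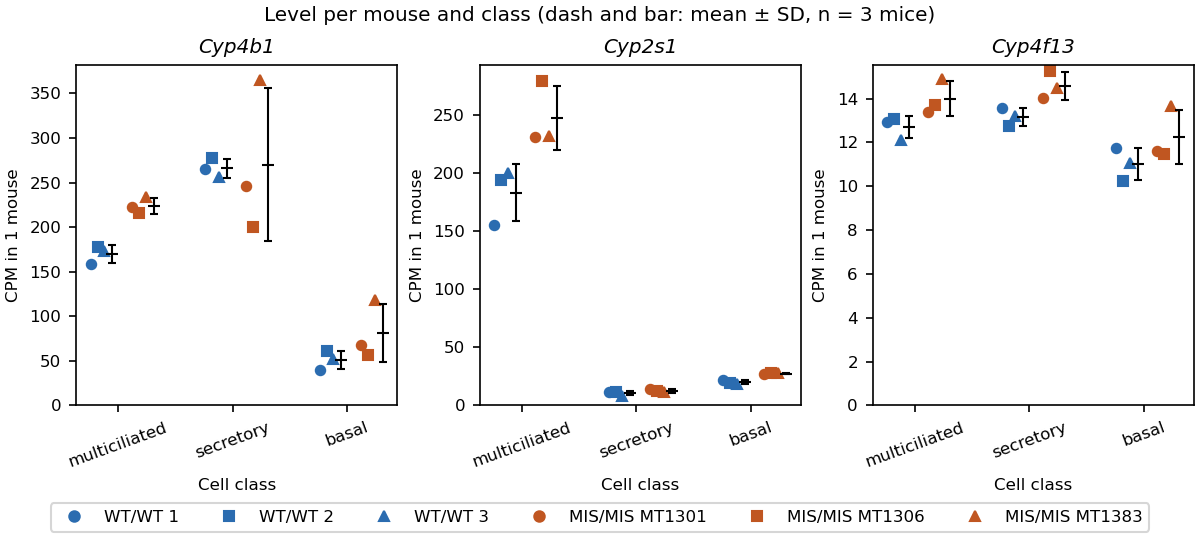
Level in CPM of *Cyp4b1*, *Cyp2s1* and *Cyp4f13* for each mouse in each cell class, with the mean ± SD of 3 mice beside the points. *Cyp4b1* was apart in multiciliated cells (159 to 178 against 216 to 234 CPM) and overlapped in secretory and basal cells.

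Both retinoid members had higher estimates in *MIS/MIS* in each class without passing the test. The share of all genes with higher estimates in each class was not determined. For *Cyp26a1* the log2 fold changes were 0.20 ± 0.62, 0.59 ± 0.45 and 0.60 ± 0.47 (SE) in multiciliated, secretory and basal cells. Its level in multiciliated cells was low, with means of 0.588 CPM in *WT/WT* and 0.647 CPM in *MIS/MIS* mice. For *Cyp26b1* the log2 fold changes were 0.62 ± 0.51, 1.47 ± 0.62 and 0.95 ± 0.83 (SE) in multiciliated, secretory and basal cells, with adjusted p-values of 0.896, 1.00 and 1.00. In secretory cells the *WT/WT* mice had 5.52, 3.11 and 14.5 CPM and the *MIS/MIS* mice 9.01, 14.3 and 28.8 CPM, which overlapped. Single mice moved these estimates. In multiciliated cells the estimate without MT1383 was -0.12. In secretory cells it was 0.73 without *WT/WT* mouse 2. In basal cells it was 0.33 without *WT/WT* mouse 2, 0.34 without MT1383 and 1.68 without MT1301. *Cyp27a1* in basal cells had the largest estimate of all members, -2.33 ± 2.02 (SE, adjusted p = 1.00), with 22.7, 0.209 and 4.33 CPM in *WT/WT* and 0.272, 1.84 and 0.612 CPM in *MIS/MIS* mice. The same mice had 1048, 2 and 167 Basal4 cells and 1, 118 and 29, and hillock or squamous markers over all cells summed to between 207 and 5183 CPM in *WT/WT* and between 264 and 514 CPM in *MIS/MIS* mice. Their part in this estimate was not tested.

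Within single clusters, 18 to 26 members could be tested in each of the 9 clusters with at least 20 cells in every mouse, and 0 were called in any of them, where 0 to 3 of all genes were called. The called share of all genes was 0% in Basal1 and Basal6, 0.00896% in Basal2, 0.00847% in Basal3, 0.00874% in Multiciliated1, 0.00857% in Multiciliated2, 0.0229% in Multiciliated3, 0.00759% in Secretory1 and 0.00808% in Secretory2. At an unadjusted p under 0.05, Basal6, where *Mki67* and *Top2a* of cycling cells peaked, had the most members, 5 of 18, against 4.25% of all genes. The cycling marker *Cdk1* peaked in Multiciliated2 (279 CPM) and was at 258 CPM in Basal6. Basal1 and Basal2 had 2 of 22 each (4.71% and 5.08% of all genes), Basal3 had 0 of 21 (4.39%), Multiciliated1 had 2 of 22 (3.97%), Multiciliated2 had 3 of 18 (3.49%), Multiciliated3 had 2 of 20 (4.5%), Secretory1 had 3 of 26 (2.31%) and Secretory2 had 2 of 24 (2.94%). The genotypes did not overlap for 3 members each in Basal1 (12.6% of all genes), Basal2 (9.98%), Multiciliated3 (9.61%) and Secretory1 (6.24%), for 5 each in Basal6 (9.77%) and Multiciliated2 (7.77%), for 4 in Secretory2 (8.22%) and for 0 in Basal3 (9.05%) and Multiciliated1 (7.82%). In Basal6 cells *Cyp2a5* lay at 3.62, 13.4 and 14.9 CPM in *WT/WT* mice and at 44.3, 24.9 and 55.1 CPM in *MIS/MIS* mice, with a log2 fold change of 1.86 ± 0.43 (SE, adjusted p = 0.998). *Cyp39a1* lay at 30.8, 25.8 and 29.9 CPM against 19.5, 21.5 and 20.7 CPM, with a log2 fold change of -0.47 ± 0.12 (SE, adjusted p = 0.998). In Multiciliated2 cells *Cyp2f2* lay at 3559, 3369 and 3209 CPM against 2776, 2807 and 2193 CPM, with a log2 fold change of -0.42 ± 0.11 (SE, adjusted p = 0.987). The groups did not overlap for any of these 3 genes, and none passed the test.

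Estimates in the 9 clusters come from the same 6 cultures and are not independent. The share of all genes without overlap in as many clusters as the members below was not determined, so these counts have no background. *Cyp2s1* was higher in *MIS/MIS* in 8 of 9 clusters, without overlap in 4 of them (Basal2, Basal6, Multiciliated3 and Secretory2). *Cyp4f13* was higher in 9 of 9, by at most 0.22 on the log2 scale, and without overlap in 2. *Cyp4a12b* had a lower estimate in 8 of 9 and lay lower without overlap in 3, among them Secretory1, where the *WT/WT* mice had 161, 140 and 183 CPM and the *MIS/MIS* mice 119, 102 and 137 CPM (log2 fold change -0.45 ± 0.14, SE, adjusted p = 1.00). *Cyp26b1* was higher in each of the 8 clusters where it was tested, without a cluster free of overlap.

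When the genotype differences of 2 classes were compared with each other, 32 members were tested and 0 were called in each of the 3 pairs of classes, as were 0% of all genes. At an unadjusted p under 0.05 there was 1 member for basal against multiciliated cells, 2 for basal against secretory cells and 0 for secretory against multiciliated cells, against 4.41%, 2.76% and 2.21% of all genes.

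P450 enzymes depend on other proteins, and these were followed by lists of genes. None of the genes of the 7 lists was called in any class in either direction. Of 12 electron donors, 12, 11 and 11 were tested in multiciliated, secretory and basal cells, with median log2 fold changes of -0.01, -0.04 and -0.05. *Por*, the reductase that feeds microsomal P450 enzymes, was highest in Secretory2 (900.1 CPM) and Basal2 (893 CPM) and lowest in Multiciliated4 (57.7 CPM). *Cyb5a*, cytochrome b5, was at 2087 CPM in Secretory2. *Fdx1*, the ferredoxin of mitochondrial P450 enzymes, was highest in Secretory1 at 340 CPM. *Pgrmc1*, a heme-binding partner of P450 enzymes, was at 790 CPM in Multiciliated1, and *Cyb5r3*, *Cyb5b*, *Fdx2* and *Pgrmc2* peaked between 74.0 and 472 CPM.

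Of the 12 genes of heme synthesis and breakdown, 12 were tested in each class, with medians of -0.02, -0.05 and -0.04. *Alas1*, the first and limiting enzyme of heme synthesis, was highest in Secretory1 (493 CPM) and Secretory2 (485 CPM) and lowest in the neuroendocrine cluster (60.2 CPM). *Hmox1*, which degrades heme, was highest in Basal3 (531 CPM), *Blvrb* in Multiciliated1 (302 CPM), *Hmox2* in Multiciliated4 (128 CPM) and *Alad* in Basal2 (68.3 CPM).

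Of the 8 genes of the aryl hydrocarbon receptor axis, 7 were tested in each class, with medians of 0.07, -0.09 and -0.32, the last against -0.01 over all genes. The receptor itself, *Ahr*, was highest in Basal3 (246 CPM), and its repressor *Ahrr* was at most 0.0672 CPM. Of its known targets, *Nqo1* was highest in Multiciliated1 (354 CPM), *Aldh3a1* in Basal5 (1391 CPM) and *Tiparp* in Basal3 (121 CPM). In basal cells *Nqo1* was at 138 ± 45.1 CPM in *WT/WT* and 102 ± 42.0 CPM in *MIS/MIS* mice (SD, n = 3 each), with a log2 fold change of -0.52 (adjusted p = 1.00).

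Of the 9 nuclear receptor genes that regulate P450 enzymes in liver, 8 were in the table and 6, 5 and 5 were tested, with medians of 0.05, 0.01 and -0.03. *Nr1i2* (pregnane X receptor), *Nr1i3* (constitutive androstane receptor) and *Hnf4a* were at most 1.04, 1.44 and 0.417 CPM in any cluster.

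Of the 15 retinoid handling genes, 14 were in the table and 12 were tested in each class, with medians of -0.05, 0.06 and -0.08. *Aldh1a1*, which makes retinoic acid, was highest in Multiciliated3 (5443 CPM) and lowest in Basal1 (172 CPM). Multiciliated3 held 0.942 CPM of *Cyp26b1*, which breaks retinoic acid down. *Dhrs3* was highest in Basal5 (228 CPM), *Rdh10* in Basal1 (164 CPM), *Dhrs9* in Multiciliated3 (313 CPM) and *Aldh1a7* in Multiciliated1 (149 CPM).

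Of the 11 epoxide hydrolases and flavin monooxygenases, which act beside P450 enzymes on foreign compounds, 10 were in the table and 7, 8 and 9 were tested, with medians of 0.15, -0.02 and -0.06. *Ephx1* was at 345 CPM in Basal7 and *Fmo2* at 786 CPM in Basal2. Of the P450 genes outside the symbol rule, 1 of 3 was tested. *Cyp51*, the demethylase of cholesterol synthesis, was highest in the ionocyte cluster (288 CPM) and the neuroendocrine cluster (271 CPM), with log2 fold changes of -0.28, -0.00 and -0.26, while *Tbxas1* and *Ptgis* stayed under 1 CPM.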

How the data were processed

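Primary tracheal cells of 6 mice, 3 per genotype, were profiled by droplet single-cell RNA-Seq. Per the labels, Cell Ranger 7.1.0 and build mm10 were used, while the paper names another Cell Ranger release. The authors filtered cells by genes detected (2500 to 7500) and mitochondrial share (at most 25%), the upper limit against doublets, clustered them with Seurat and deposited whole-number UMI counts with a cluster name per cell. Of 23871 cells deposited, 23216 meet these limits. No doublet caller was run. The deposited table uses a mistyped separator, so that it was recorded as another kind of value than a count table. The edgeR quasi-likelihood test planned for it was therefore not used, and limma 3.58.1 with voom weights (R 4.3.3) took its place. *MIS/MIS* libraries were assigned by the mutant prefix of their names and cannot be tied to single sample titles. No column of another series was present (0 columns).

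For each mouse, UMIs of all cells in a cluster or class were added up. Genes entered a test with at least 10 counts in a library of median size in 3 mice and 15 counts in all, and libraries were scaled by TMM (trims 0.3 and 0.05). Levels are CPM of all UMIs of a sum. The threshold was an adjusted p of 0.05 over all genes tested. SDs and p-values measure the spread among the mice, 1 culture library each. On simulated data with 200 genes changed 2-fold, recovery at dispersion 0.02 was 87.0% for the multiciliated comparison (14106 genes), 89.0% for the secretory one (13469) and 86.5% for the basal one (14507). At dispersion 0.1 it was 3.5%, 3% and 1%. Of the genes called, 5.95%, 7.29% and 2.81% were false at dispersion 0.02, and 0%, 0% and 33.3% at 0.1. The dispersion of the real data was not set beside these settings, so recovery in them is not known. Named were members of at least 10 CPM in a cluster, and per class up to 5 members of at least 5 CPM whose genotypes did not overlap, list genes of at least 50 CPM in a class, and the 5 genes most like each of the 3 leading members. Genes named below these levels were chosen after their values were seen. Some list genes that meet the rule are not reported here. The members and lists were chosen with earlier results of these data known. Positions and coding sequences are from GENCODE M21 on GRCm38, and promoters from RefSeq on GRCm38.p6. Alternatives were median-of-ratios scaling, no count filter, leaving out each mouse, equal cluster composition, cells thinned to 5000 UMIs, the stated cell filters, and, added after the data were seen, limma-trend and leaving out mice in cluster and interaction tests. Sums and sequences were handled in Python 3.11.15 (biopython 1.88, pandas 2.3.3, numpy 2.4.6) and figures drawn in matplotlib 3.10.9.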

Additional observations from a re-analysis of the deposited data

Results flagged for a closer look

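In 2 P450 genes the genotypes did not overlap in opposite directions in a pair of clusters, and the difference between the clusters was not tested. These were 2 of the 26 members tested in at least 2 clusters, and among all 13519 such genes 607 (4.49%) showed the same. *Cyp2a5* had a log2 fold change of *MIS/MIS* against *WT/WT* of -0.95 in Basal2 cells and of 1.86 in Basal6 cells. *Cyp4v3* had one of 0.88 in Basal1 cells and of -0.79 in Multiciliated2 cells. The *Cyp2a5* levels in Basal2 were 274, 101 and 144 CPM in *WT/WT* and 48.0, 99.3 and 98.8 CPM in *MIS/MIS* mice. The *Cyp4v3* levels were 4.39, 3.62 and 7.07 CPM against 8.398, 13.5 and 9.01 CPM in Basal1, and 4.19, 3.79 and 4.504 CPM against 2.15, 3.24 and 2.27 CPM in Multiciliated2. None of these passed limma's voom test after adjustment over all genes (lowest adjusted p = 0.952).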

How the results depend on the processing

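No P450 gene was called in any class, cluster or pair of classes under any alternative run, including limma-trend (lowest adjusted p of a member = 0.233). This includes leaving out each mouse in turn. The clusters with at least 50 cells in each mouse were the same 9 as those with at least 20. The number of members that reached 10 CPM was 22, and it was 21 with each mouse weighted alike and 23 with cells thinned. Of the 22, the leading cluster was the same for 18 and 22, respectively. Of 180 values of *Cyp2f2*, *Cyp2s1*, *Cyp4b1*, *Cyp4f13* and *Cyp26b1* under alternatives, 174 kept their direction. The 6 that reversed were *Cyp2f2* in basal cells without *WT/WT* replicate 3 (-0.0077), *Cyp4b1* in secretory cells without MT1301 (0.03), MT1306 (0.20) or *WT/WT* replicate 2 (0.02), *Cyp4b1* in basal cells at equal cluster composition (-0.056) and *Cyp26b1* in multiciliated cells without MT1383 (-0.12). With each mouse left out in turn these estimates ranged from -0.0077 to 0.36, from -0.29 to 0.20 and, for *Cyp26b1*, from -0.12 to 0.93. The cause was not tested. The genotypes of *Cyp2s1*, *Cyp4b1* and *Cyp4f13* did not overlap in at least 1 class each. In such a class leaving out a mouse could hardly reverse the direction, so those values do not check it. The edgeR and DESeq2 tests were not run, because the mistyped separator kept the deposited counts from being recorded as a count table, and voom, planned as an alternative, took their place. No paired analysis was possible because the columns of the mutant mice carry numbers that no *WT/WT* mouse and no title shares. The smallest change that 3 mice per genotype could show was not determined, and levels under 1 CPM rest on few UMIs.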
